A study of Mus musculus with 15 samples.

Results

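The miRNA repertoire of the wild type (wt) left ventricle (LV) was described from the 5 wt libraries among the 15 of the series, chosen by the names of their columns in the deposited table of counts. The series sequenced small RNA of LV tissue from wt mice, from mice without arginine:glycine amidinotransferase (AGAT-/-), and from AGAT-/- mice given homoarginine. Only the wt mice are described here, and no genotype or treatment was compared. They were littermates from heterozygous breeding on a C57BL/6J background, carried the wildtype genotype and the treatment label control, and each gave 1 library, sequenced on lane 8. Age and sex were not given in the sources used here. LV tissue is a mixture of cells, and in such bulk samples fewer cells of a type and less RNA per cell cannot be told apart.

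MiRNAs are short RNAs that pair with messenger RNAs and lower their translation or stability. A primary transcript folds into a hairpin, the precursor, which is cut by Drosha and then by Dicer, so that each precursor can give a mature strand from its 5' arm (5p) and another from its 3' arm (3p). Usually the strand loaded into an Argonaute protein is kept, and its seed, the bases 2 to 8, guides it to its targets. Neighbouring precursors are often transcribed together as a cluster, and many others lie in introns of host genes.

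The sequences below carry the findings on abundance, shared seeds, shared reads and spread. They are the RefSeq mature sequences (GRCm38.p6), 5' to 3', with the seed in capitals. The first set shows members of the mir-378 group, which took most reads. The sequences of mir-378c-5p and mir-378d-5p have a run of 14 bases in common, and that of mir-378b-3p has 19 bases in common with mir-378c-5p but a different start, so that its seed is shifted.
mir-378c-5p: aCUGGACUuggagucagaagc
mir-378d-5p: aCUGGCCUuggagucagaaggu
mir-378b-3p: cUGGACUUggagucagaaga
The second set shows a seed shared by several rows, that of the mir-15/16 family.
mir-322-5p: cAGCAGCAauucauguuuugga
mir-497a-5p: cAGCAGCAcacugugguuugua
mir-195a-5p: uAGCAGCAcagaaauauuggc
The third set shows 3p strands of the let-7 family, of which the first and the second are identical over their whole length.
let-7a-1-3p: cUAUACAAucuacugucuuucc
let-7c-2-3p: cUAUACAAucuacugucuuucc
mir-98-3p: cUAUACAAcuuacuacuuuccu
The last set shows both arms of mir-582, which had the widest spread between mice, both arms of mir-345, whose balance changed between mice, and the strands of mir-92a-2 and mir-24-2 that held nearly all reads of their clusters.
mir-582-5p: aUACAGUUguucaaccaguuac
mir-582-3p: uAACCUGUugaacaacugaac
mir-345-5p: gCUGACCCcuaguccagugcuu
mir-345-3p: cCUGAACUaggggucuggagac
mir-92a-2-3p: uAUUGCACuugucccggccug
mir-24-2-5p: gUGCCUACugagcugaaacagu

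The table held 1836 rows, the 5p and 3p arms of 918 precursors. The 5 libraries held 445454, 441196, 486204, 442725 and 415608 reads in mice 1 to 5. Levels are given as counts per 1000000 reads (CPM) on the total of each library, with no scaling for length. With these totals, 3 reads correspond to 6.17 to 7.22 CPM, a floor that covers counting error only. No 2 libraries agreed within counting error (chi-square per degree of freedom of 2.61 to 17.5 over 10 pairs), so each mouse was counted as a replicate.

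At least 1 read was seen in 942 rows, and 406 rows (22.1%) from 339 precursors had more than 10 reads over the 5 mice. These 406 rows held 99.9% of all reads, and 187 rows had more than 10 reads in every mouse. The other 894 rows were listed at 0 in all 5 wt libraries. Of these, 672 were at 0 in all 15 libraries of the series, and 222 had reads in another group, with at most 14 reads in all. A row at 0 in all 15 libraries may have no estimate, so it is called listed at 0 and not absent. The rows of let-7i-5p, mir-30b-5p and mir-30d-3p are among those listed at 0 in all 15 libraries. The paper names these strands among the miRNAs that its sequencing found to differ between wt and AGAT-/- mice. For them the listed value is therefore not a measured level, and for the other rows this was not tested. Rows with reads may be incomplete too. In the paper's list of miRNAs that differ, mir-130a-3p has the smallest P value. Its row here had 20, 10, 13, 8 and 11 reads in the 5 wt mice. The rows at 0 in all 15 libraries include strands that are usually the main ones. All shares and ranks below describe the listed counts and hold only among the rows with values.

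A few miRNAs took most reads. The 9 rows with at least 10000 CPM held 88.4% of the reads. A further 33 rows between 1000 and 10000 CPM held 7.65%, and 87 rows between 100 and 1000 CPM held 3.22%. The 639 rows below 10 CPM together held 0.157%. Counting from the top, 13 rows made up 90% of the reads, 34 rows 95% and 110 rows 99%.

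**Figure D1:**
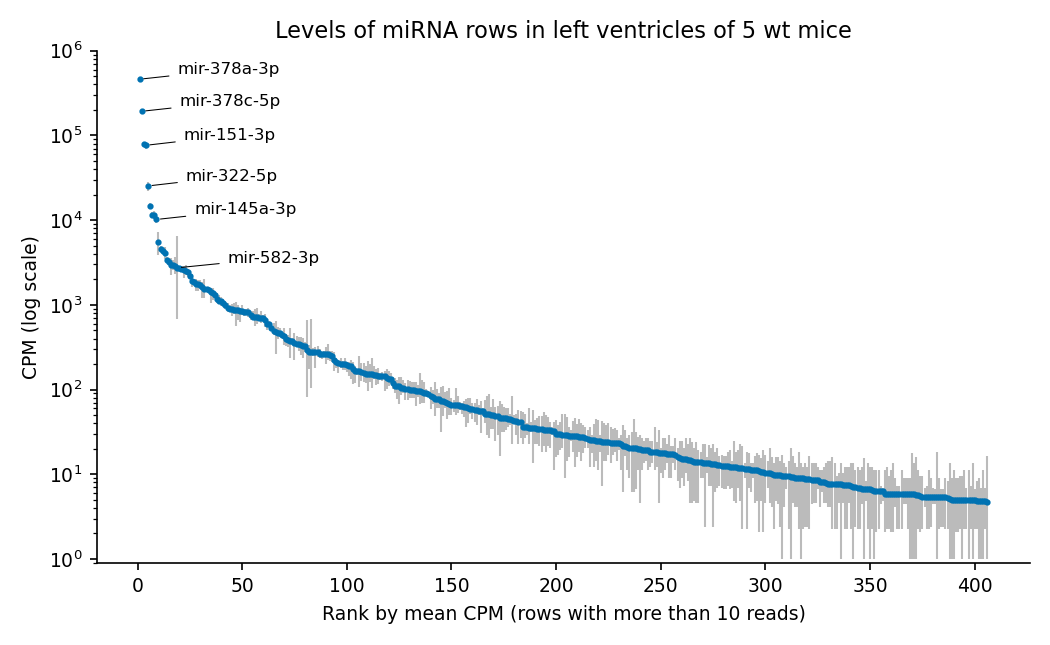
Mean CPM (log scale) of the 406 rows with more than 10 reads against their rank, with grey lines from the lowest to the highest of 5 wt mice, drawn no lower than 1 CPM. The level falls from 461378 CPM for mir-378a-3p, and the line of mir-582-3p is the longest among the abundant rows.

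Among the rows with values, the mir-378 group was the most abundant. Its main member, mir-378a, lies in an intron of Ppargc1b, which encodes a coactivator of mitochondrial genes, and the group is known for roles in muscle and energy metabolism. Mice 1 to 5 had 200439, 205859, 222819, 211528 and 188794 reads of mir-378a-3p, or 461378 ± 11033 CPM (SD, n = 5). All 5 mice lay close together, with mouse 4 highest and mouse 1 lowest in CPM and a coefficient of variation (CV) of 2.39%. For mir-378c-5p the mice had 89832, 85799, 92668, 82456 and 79417 reads (192812 ± 5747 CPM). For mir-378d-5p they had 33367, 35186, 39294, 37136 and 33032 reads (79767 ± 3230 CPM). In CPM, mouse 1 was highest for mir-378c-5p and lowest for mir-378a-3p, while mouse 4 was the reverse. The mir-378 sequences shown above have long runs in common. How reads were divided among the mir-378 rows was not tested, so their separate levels are not firm values.

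These 3 rows together took 73.4 ± 0.998% of the reads of a library (range 72.5 to 74.8%, n = 5). The fourth mir-378 row with reads, mir-378b-3p, was far lower, with 528, 452, 472, 441 and 447 reads (1050 ± 84.8 CPM), and the other arm of each of the 4 precursors was listed at 0 in wt. All mir-378 rows took 73.5 ± 0.993%. In the reads left without them, the next 3 rows took 44.0 ± 0.783%, so the remainder was also uneven.

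After mir-378d-5p came mir-151-3p, at a similar level. It comes from an intron of Ptk2, the gene of focal adhesion kinase (chromosome 15, 73254815 to 73254882, minus strand, GRCm38). The mice had 35332, 33707, 38004, 30673 and 32958 reads of mir-151-3p (76493 ± 4203 CPM). Mouse 4 was lowest, and the other mice lay between 76399 and 79317 CPM. In mice 1 to 5, mir-322-5p, the mouse counterpart of human miR-424, had 10762, 9699, 13070, 11403 and 11614 reads (25345 ± 2345 CPM), highest in mouse 5 and lowest in mouse 2.

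Next came mir-24-2-5p, the passenger strand of mir-24, with 5977, 6138, 7737, 7012 and 6066 reads (14735 ± 1122 CPM). Then came mir-125b-2-3p (11585 ± 563 CPM), from an intron of the lncRNA gene Mir99ahg, mir-351-5p (11418 ± 1114 CPM), an X-linked relative of mir-125, and mir-145a-3p (10186 ± 962 CPM), whose precursor is known from smooth muscle. Row 10 was mir-92a-2-3p, a miRNA studied in endothelium, with 5595 ± 1310 CPM. The remaining 10 of the 20 most abundant rows lay between 2737 and 4508 CPM. They were mir-322-3p, mir-101b-3p, mir-146a-5p and mir-155-5p (both known from inflammation), let-7j-5p, mir-181c-3p, mir-144-5p (erythroid), mir-486a-5p (muscle and blood), mir-434-3p and mir-582-3p.

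The order of the levels was firm at the top and loose below. Among the 20 most abundant rows, the higher of 2 neighbours was higher in every mouse for 8 of 19 pairs. Row 4, mir-151-3p, was below mir-378d-5p in 4 of 5 mice, and the mean difference of 3274 CPM was smaller than its SD of 7023 CPM. The order of mir-125b-2-3p and mir-351-5p held in 3 of 5 mice, and that of mir-322-3p and mir-101b-3p in 2. From let-7j-5p to mir-155-5p no neighbouring pair kept its order in all mice. With 5 mice, the exact two-sided sign-flip test cannot give a p below 0.0625, so pairs are described by counts of mice.

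**Figure D2:**
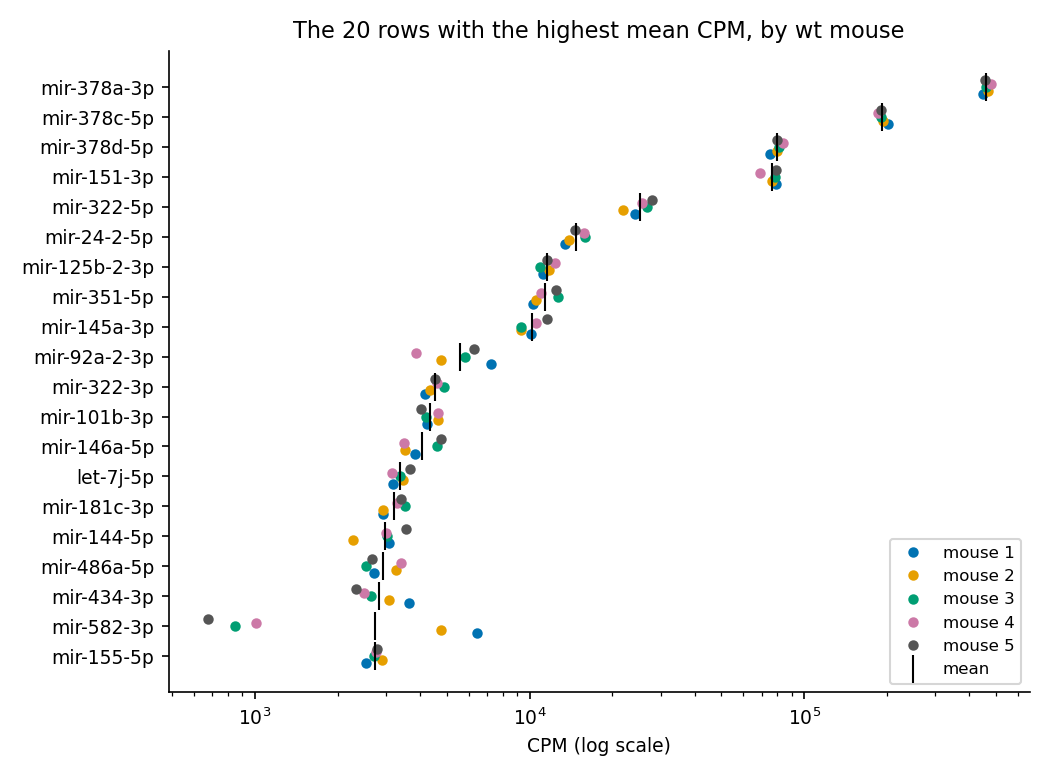
CPM (log scale) of the 20 most abundant rows in each of 5 wt mice, with the mean as a black bar. Points of most rows nearly coincide, whereas those of mir-582-3p run from 674 to 6425 CPM, with mice 1 and 2 apart from the others.

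The muscle label of the tissue was checked with lists of known marker miRNAs. Of the 20 rows of cardiac and skeletal muscle miRNAs (myomiRs) in the table, 11 (55%) had more than 10 reads, against 22.1% of all rows, and the list took 0.573 ± 0.0383% of reads. Of its 12775 reads, 8480 were on mir-486a and mir-486b, which are also known from blood. Without them, 8 of 16 rows had more than 10 reads, with 0.193 ± 0.0105% of reads. Of the 20 rows, 7 were listed at 0 in all 15 libraries. The defining strands were not seen: mir-208a-3p and both mir-1a-3p and both mir-133a-3p rows were listed at 0 in all 5 mice, while their 5p strands had reads. MiR-208a lies in an intron of Myh6, the gene of the main myosin heavy chain of the adult mouse heart, and mir-208a-5p had 53, 50, 45, 33 and 45 reads (102 ± 18 CPM). For mir-208b-5p, from the intron of the fetal myosin gene Myh7, the mice had 0, 1, 2, 1 and 0 reads.

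MiR-499, in an intron of Myh7b, was read from both arms. The mice had 332, 372, 333, 300 and 285 reads of mir-499-5p (727 ± 70.3 CPM) and 28, 54, 33, 38 and 20 of mir-499-3p (77.4 ± 28.5 CPM). The passenger strand mir-133a-2-5p had 197, 189, 242, 174 and 226 reads, and mir-1a-1-5p had 14, 41, 34, 47 and 27. In CPM, mouse 1 was the lowest for mir-1a-1-5p, and no mouse lacked any of these strands. Of mir-1b-3p the mice had 3, 4, 5, 9 and 0 reads. Thus the heart muscle miRNAs named here, except mir-1b and mir-208b, were present in every mouse. For mir-1a, mir-133a and mir-208a this was the strand that is usually the less abundant.

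Markers of other cells in the LV were also seen. Of 10 endothelial and smooth muscle rows, 4 (40%, against 22.1% of all rows) had more than 10 reads, and nearly all of their 1.03 ± 0.0953% of reads was mir-145a-3p. The endothelial mir-126a-3p had 12, 7, 13, 4 and 4 reads. Of 16 blood cell rows, 5 (31.25%) had more than 10 reads (0.582 ± 0.0422% of reads), and 9 were listed at 0 in all 15 libraries. Of the 12971 reads of this list, 6647 were on mir-144-5p and 6104 on mir-155-5p, which is also known from inflammation. MiR-144-5p had 1369, 1000, 1476, 1332 and 1470 reads, but its cluster partner mir-451a, the typical miRNA of red cells, was listed at 0 on both arms, and mir-223-5p, of myeloid cells, had 2 to 10 reads.

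Of 16 rows of fibroblast and matrix miRNAs, 6 (37.5%) had more than 10 reads (0.243 ± 0.0224% of reads). They were mir-199b-5p (1123 ± 103 CPM), mir-21a-3p (586 ± 40.9 CPM), mir-29a-3p (492 ± 67.6 CPM), which targets collagen messages, mir-21a-5p (209 ± 19.8 CPM), and low counts of mir-29b-1-5p and mir-29b-2-5p. Of 8 rows of epithelial and liver miRNAs in the table, only mir-429-3p had more than 10 reads, with 105, 46, 66, 54 and 65 (151 ± 51.2 CPM). Of the liver miRNA mir-122, the 3p strand had 1 read in 1 mouse. The 5p strand was among 4 of the 8 rows that were listed at 0 in all 15 libraries, so these cannot be judged. The table held 4 of the 13 precursors listed for other tissues, and the others, the neural ones among them, were not analysed here.

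Among the miRNA families, let-7 showed the same pattern of strands. Of 24 let-7 and mir-98 rows, 8 had more than 10 reads, and 14 were listed at 0 in all 15 libraries. The main strands let-7a-5p, let-7b-5p, let-7d-5p, let-7f-5p, let-7g-5p and let-7i-5p were all listed at 0. The family's 0.976 ± 0.107% of reads came mainly from let-7j-5p, let-7c-2-5p and the 3p strands shown above. For let-7j-5p the mice had 1418, 1524, 1645, 1396 and 1520 reads (3366 ± 207 CPM).

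Of 18 rows of the mir-15/16 family, 7 had more than 10 reads, and the family took 3.33 ± 0.281% of reads. Apart from both strands of mir-322, it was led by mir-497a-5p, with 1273, 917, 1283, 1038 and 1177 reads (2550 ± 334 CPM). MiR-195a-5p, its cluster neighbour, had 195, 147, 261, 159 and 210 reads. Mice 3, 1 and 5 were above mice 2 and 4 for both. Of the 10 mir-30 rows 4 had more than 10 reads, led by mir-30b-3p (343 ± 48.8 CPM).

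Rows were also grouped by seed, as far as a sequence was at hand. The table of RefSeq sequences held a mature entry for 767 of the 918 precursors (83.6%). Of the 406 rows with more than 10 reads, 302 had a sequence, with 41.1% of reads, and mir-378a-3p, mir-151-3p, mir-125b-2-3p, mir-351-5p and mir-145a-3p were not among them, so the seeds were not ranked over the whole repertoire. The 302 rows had 285 different seeds, of which 15 were shared by more than 1 row. The seed AGCAGCA of mir-322-5p, mir-497a-5p and mir-195a-5p held 2.83 ± 0.264% of reads. The seed UAUACAA of the let-7 3p strands held 0.436 ± 0.0622%. The rows mir-378c-5p and mir-378d-5p differ in their seeds, and these rows took 19.3 ± 0.575% and 7.98 ± 0.323% of the reads. Rows without a sequence, mir-378a-3p among them, are not counted in any seed. The full share of a seed was therefore not measured.

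Pairs of rows with the same mature sequence did not all have the same ratio of reads. There were 6 such groups of 2 rows among those with reads. The rows let-7a-1-3p and (identical to it) let-7c-2-3p had 656, 763, 966, 695 and 829 reads against 648, 760, 959, 697 and 826, at most 8 reads apart in any mouse. By contrast, the identical mir-92a-2-3p and mir-92a-1-3p had 3226, 2108, 2819, 1714 and 2612 reads against 889, 611, 717, 539 and 706. The ratio was 3.58 ± 0.282 (range 3.18 to 3.93, n = 5). The remaining pairs had few reads and were nearer to equal, with 53 and 52, 17 and 16, 10 and 14, and 12 and 14 reads over the 5 mice. How the counting assigned a read that matches several precursors was not given in the sources used here. Whether such a read was divided between the rows or counted in each was not tested, so neither the rows of such a pair nor their sum is a firm value.

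Most of the precursors that could be tested had unequal reads on their 5p and 3p arms. Over all precursors, 5p rows took 37.7 ± 0.350% of reads, and 39.4 ± 1.69% without mir-378. Reads were seen on both arms of 250 precursors, on 1 arm of 442 and on neither of 226. Of the 339 precursors with more than 10 reads on an arm, 160 had the other arm listed at 0 in all 15 libraries (the 3p arm in 61 and the 5p arm in 99). These 160 held 87.6% of the reads, so most reads cannot be used to compare arms. Where both arms had reads, whether each was fully counted was not tested, so the arm shares below describe the listed counts only.

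The 174 precursors with reads on both arms and more than 10 in all were tested with edgeR's quasi-likelihood test with mouse as a block. In this fit all precursors were given the same trend of spread (infinite prior degrees of freedom), so that its SEs and FDRs do not reflect the spread of each precursor by itself. At a false discovery rate (FDR, Benjamini-Hochberg) of at most 0.05, 129 (74.1%) differed between their arms. The 5p arm was higher in 57 (32.8%) and the 3p arm in 72 (41.4%). The same arm was higher in every mouse in 115 (66.1%), 51 for 5p and 64 for 3p. Where more than 10 reads were required on each arm, 57 of 67 differed, 29 for 5p and 28 for 3p, so the excess of 3p calls was not seen among them.

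**Figure D3:**
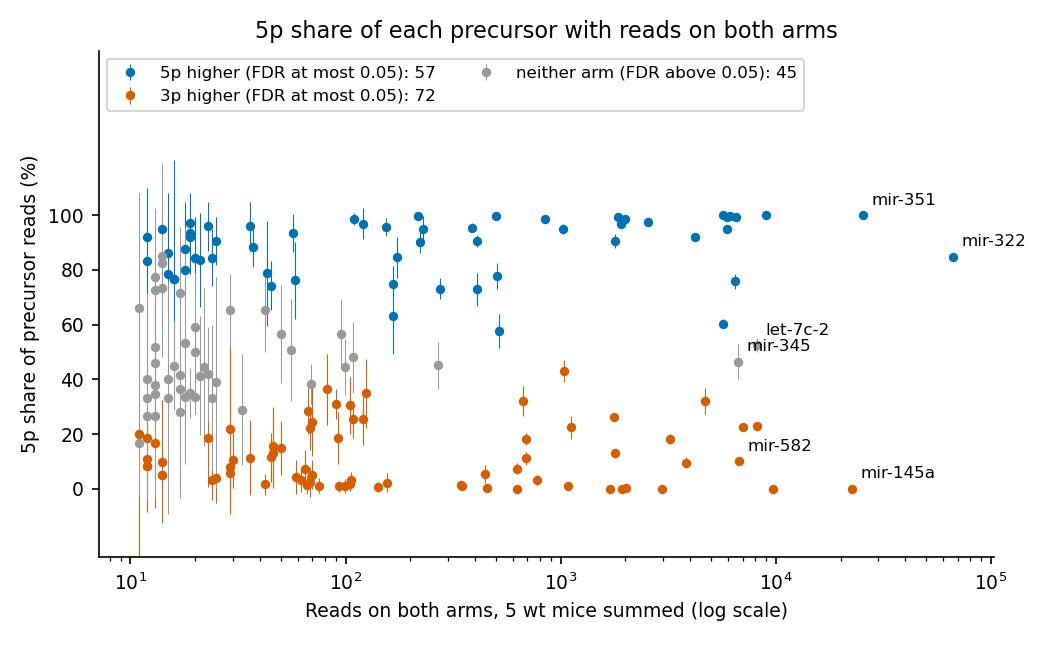
Share of reads on the 5p arm (%, mean and SD of 5 wt mice) against the reads on both arms (log scale) for the 174 precursors tested. Many precursors with many reads lie near 0 or 100%, with mir-345 and let-7c-2 near the middle.

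The lesser arm held under 5% of the reads in 47 of the 174 precursors and 20 to 50% in 75, of which 33 passed the threshold. The largest 5p excess among those past the threshold was seen for mir-351 (25499 reads on 5p and 19 on 3p), mir-497a (5688 and 5), mir-146a (9025 and 9), mir-224 (501 and 1) and mir-155 (6104 and 30). The largest 3p excess was seen for mir-145a (5 reads on 5p and 22649 on 3p), mir-101b (5 and 9694), mir-7068 (2 and 2956), mir-486b (1 and 1928) and mir-300 (2 and 1689). For each of these 10 the same arm was higher in every mouse. The related mir-486a had the reverse of mir-486b, with 6505 reads on 5p and 46 on 3p. How reads were divided between mir-486a and mir-486b was not tested, so the excess of mir-486b is not firm.

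Among the precursors with the most reads, several used both arms at a steady ratio. The 5p share of mir-322 was 85.3, 83.5, 84.6, 84.8 and 86.1% in mice 1 to 5, a log2 ratio of 5p over 3p of 2.49 ± 0.087 (edgeR's SE, where the ratios of the 5 mice alone gave 0.048). The 5p share of mir-434 was 21.3, 22.6, 22.7, 23.3 and 24.9% (log2 ratio -1.75 ± 0.10, SE). That of mir-676 was 22.5 ± 1.31% (SD). MiR-21a, known from fibroblasts of the stressed heart, also had more 3p than 5p reads in these counts, with a 5p share of 26.3 ± 0.967%. Over the 55 precursors with a mean above 50 reads, 52 had the same arm higher in every mouse, and the median SD of the 5p share was 1.34 percentage points.

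In 45 of the 174 neither arm passed the threshold, and those with the most reads were let-7c-2 and mir-345. Let-7c-2 had 813, 712, 1065, 768 and 959 reads on 5p and 648, 760, 959, 697 and 826 on 3p, and the 5p arm was higher in 4 of 5 mice (log2 ratio 0.15 ± 0.097, edgeR FDR 0.156). Since its 3p sequence is that of let-7a-1-3p, this ratio depends on how shared reads were counted. MiR-345 changed its leading arm between mice, with 713, 643, 618, 645 and 479 reads on 5p and 825, 625, 878, 530 and 740 on 3p. Its 5p share was 46.4, 50.7, 41.3, 54.9 and 39.3%, above 50% in mice 2 and 4 only, and the log2 ratio was -0.21 ± 0.10 (edgeR's SE and FDR 0.0541, where the ratios of the mice alone gave an SE of 0.17). The FDR was 0.0351 without mouse 2 and 0.00278 without mouse 4, and 0.338 by DESeq2. The SD of 6.46 percentage points was exceeded, among the 55 precursors, by the 8.59 of mir-136, which had far fewer reads (122 on 5p and 146 on 3p).

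By position, 913 of the 918 precursors (99.5%) were placed on GRCm38. Precursors in introns of protein-coding genes were the largest class, 165 of the 339 with more than 10 reads on an arm, and held 58.2 ± 0.640% of reads. The 18 that lay only opposite a gene held 20.1 ± 0.641%, and the 70 in no annotated gene 16.2 ± 0.646%. Without the mir-378 rows the introns of protein-coding genes held 45.5 ± 1.61%. The 70 precursors in no annotated protein-coding or lncRNA gene then held 31.1 ± 1.59%, 25 in exons of lncRNA genes 12.2 ± 0.613%, 14 in introns of lncRNA genes 5.59 ± 0.379%, 46 in exons of protein-coding genes 2.86 ± 0.125%, and those only opposite a gene 2.51 ± 0.201%.

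Genomic clusters were formed from precursors on the same strand within 10 kb of each other. There were 56 clusters with 246 precursors, and 45 of the clusters had more than 10 reads summed over their rows. Clusters held 10.7 ± 0.642% of all reads and 40.4 ± 1.63% of those outside the mir-378 rows. The plot of the 5 leading clusters shows that in all but 2 of them a single strand held nearly all reads.

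**Figure D4:**
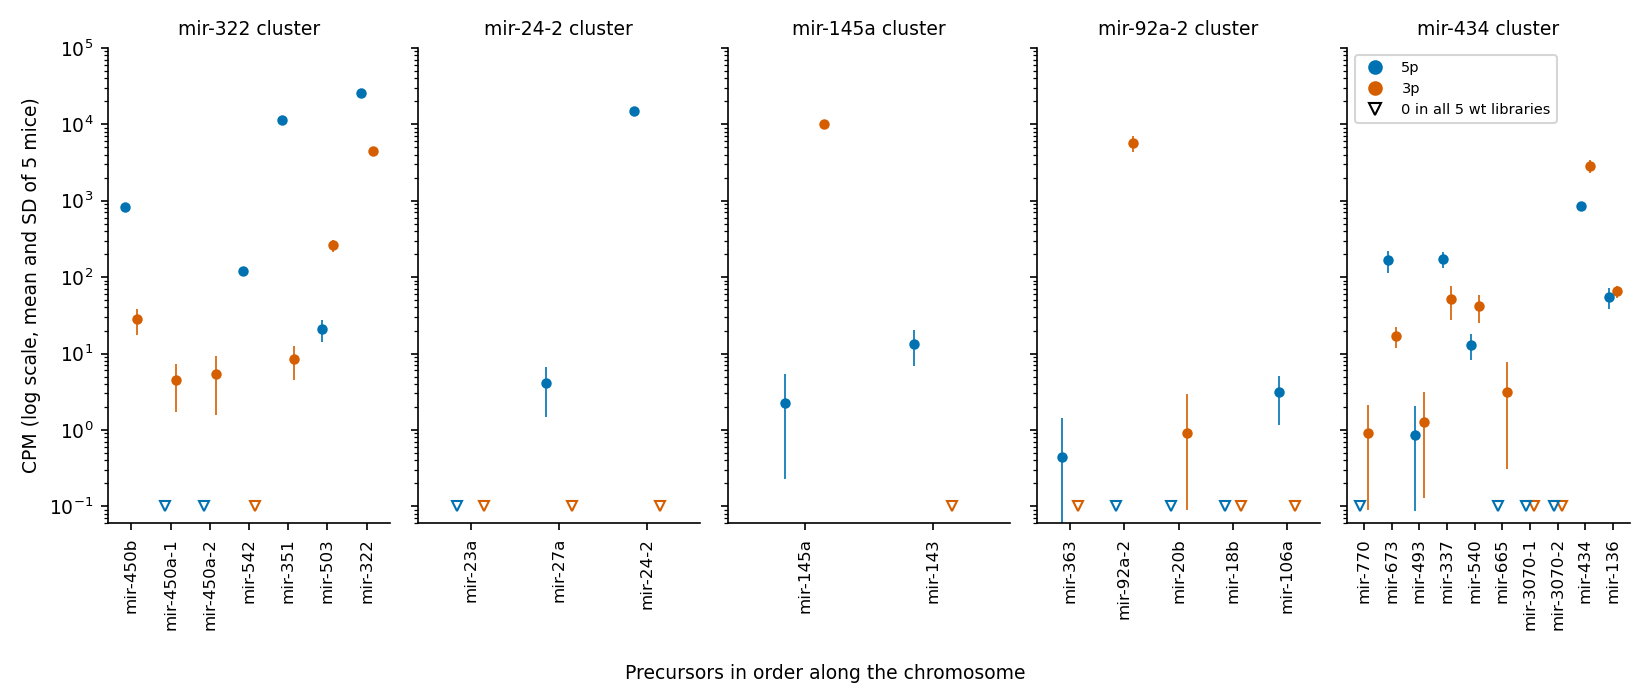
CPM (log scale, mean and SD of 5 wt mice) of each arm of each precursor in the 5 clusters with the most reads, in order along the chromosome. Open triangles at the bottom mark arms with 0 reads in all 5 wt libraries, and lower error bars are cut at 90% of the mean.

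The leading cluster lies on chromosome X from 53047997 to 53054349 on the minus strand and holds 7 precursors, with mir-322 and mir-503 at its 5' end in the direction of transcription. It took 4.25 ± 0.358% of reads, and 10 of its 14 rows had more than 10 reads. Levels within it ranged widely, from mir-322-5p and mir-351-5p through mir-450b-5p (831 ± 52.0 CPM), mir-503-3p (260 ± 50.1 CPM) and mir-542-5p (118 ± 15.7 CPM) to mir-450a-1-3p, with 1, 4, 2, 2 and 1 reads. Of mir-503 the 3p arm had 141, 88, 148, 100 and 105 reads and the 5p arm 12, 9, 9, 5 and 11.

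The mir-23a, mir-27a and mir-24-2 cluster (chromosome 8, 84208518 to 84208921, plus strand) took 1.47 ± 0.112% of reads. Nearly all of them were mir-24-2-5p. MiR-27a-5p had 0, 2, 2, 2 and 3 reads, and mir-23a, mir-27a-3p and mir-24-2-3p, the main strands, were listed at 0 in all 15 libraries. The mir-145a and mir-143 cluster took 1.02% of reads, again nearly all on mir-145a-3p, while mir-143-5p had 10, 5, 4, 8 and 3 reads and mir-143-3p was listed at 0.

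The X-linked cluster from mir-106a to mir-363 (chromosome X, 52741693 to 52742567, minus strand) took 0.560 ± 0.131% of reads, nearly all mir-92a-2-3p, and of its other 9 rows the highest, mir-106a-5p, had 0 to 2 reads. The mir-434 cluster (chromosome 12, 109563692 to 109595388, plus strand) is part of the imprinted Dlk1-Dio3 region, whose miRNAs are expressed from the maternal copy. It took 0.427 ± 0.0740% of reads, and 10 of its 20 rows had more than 10 reads. For mir-434-3p the mice had 1622, 1357, 1289, 1109 and 969 reads, for mir-337-5p 94, 93, 85, 51 and 64, and for mir-673-5p 111, 75, 75, 47 and 61. In CPM, mouse 1 was highest and mouse 4 or 5 lowest for mir-434-3p and mir-673-5p.

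Spread between mice was examined in the 231 rows with a mean above 10 reads. Their median CV was 17.9%, against 12.4% from counting alone. By a chi-square test of the counts against the library totals, 91 rows (39.4%) varied beyond counting error at an FDR of at most 0.05. The share grew with depth: 10 of 82 rows with a mean of 10 to 30 reads passed, and 23 of 24 with more than 1000. The median CV fell from 29.7% (25.4% from counting) in the first of these to 8.38% (2.31% from counting) in the last. A row that did not pass at low depth is thus not shown to be steady.

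**Figure D5:**
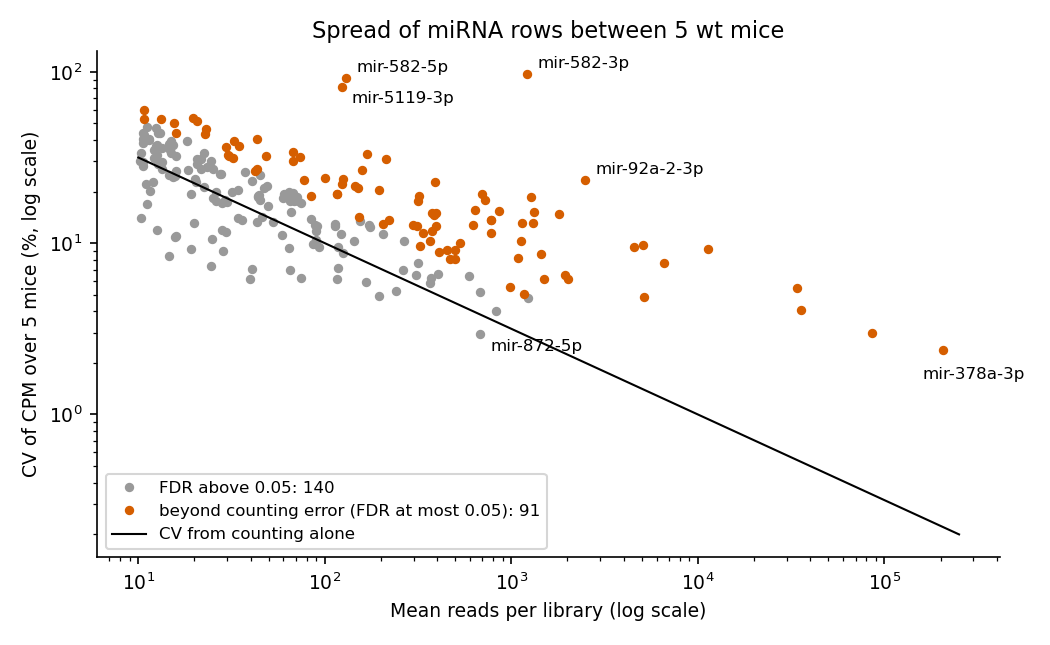
CV of CPM over 5 wt mice (%, log scale) against mean reads per library (log scale) for 231 rows, in orange where the chi-square test passed an FDR of 0.05, with the line that counting alone gives. The strands of mir-582 and mir-5119-3p stand above the rest, and mir-872-5p lies below the line.

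Of the 122 rows with a mean above 50 reads, 46 had a CV under 10% and 18 above 20%. The widest was mir-582, in an intron of Pde4d, a cyclic AMP phosphodiesterase gene (chromosome 13, 109324744 to 109324824, plus strand). The mice had 2862, 2093, 410, 446 and 280 reads of mir-582-3p (CV 97.4%, highest over lowest CPM 9.54-fold) and 298, 215, 44, 59 and 34 reads of mir-582-5p (CV 92.1%, 8.18-fold). Mice 1 and 2 were far above the others on both arms. The mean of mir-582-3p was 2739 CPM, and 1817 CPM without mouse 1. The arms moved together, and the 5p share stayed between 9.32 and 11.7%.

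The third row with a CV above 50% was mir-5119-3p, whose precursor lies within Cdk12 (intron), with 100, 65, 122, 46 and 282 reads (CV 81.8%). Mouse 5 was far above the others, and mice 1 and 2 were not. The mean level was 281 CPM, and 182 CPM without mouse 5. The next were mir-429-3p (CV 33.9%, highest in mouse 1), mir-3057-5p (32.9%, highest in mouse 5) and mir-673-5p (31.8%, highest in mouse 1). At the other end, mir-378a-3p (2.39%), mir-872-5p (2.96%), mir-378c-5p (2.98%) and mir-28a-3p (3.99%) varied least. For mir-872-5p the mice had 710, 681, 743, 651 and 628 reads, and its CV was below the 3.83% of counting alone.

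Which mouse was highest changed with the scaling of the libraries. On library totals, mouse 1 was highest in 52 of the 122 rows and mouse 4 lowest in 50. With TMM scaling by edgeR these counts were 25 and 22, and mouse 4 was highest in 44. The median log2 difference of mouse 4 to the other mice was -0.14 on totals and 0.02 with TMM. In mouse 4 the mir-378 rows took 74.9% of reads, the highest share of the 5 mice. The spread of the strands of mir-582 and of mir-5119-3p is many times larger than this shift.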

How the data were processed

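Small RNA of LV tissue was sequenced from 15 mice, of which the 5 wt libraries were used, grouped by their labels. Using the CLC Genomics Workbench and murine miRBase entries, the authors assigned reads to miRNAs and deposited raw counts of reads per mature miRNA, neither normalized nor filtered. The deposited counts are nevertheless not complete, since the rows of some strands named in the paper's sequencing result hold no reads. The miRBase release and the counting of reads that match several miRNAs were not given in the sources used here. The submitters' processing notes name GRCm38. Totals were 415608 to 486204 reads, and intervals of such counts cover counting error only.

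CPM was computed on library totals. Rows with more than 10 reads over the 5 mice were kept, after the minimum in the methods, whose scope is not stated. Arms were tested with edgeR 4.0.16 (R 4.3.3; glmQLFit, glmQLFTest, mouse as a block), and spread with a chi-square test (scipy 1.17.1), both with Benjamini-Hochberg adjustment. Precursors with reads on 1 arm only were counted, not tested. Precursors were placed by GENCODE M21 or RefSeq by name, and sequences came from RefSeq.

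Named rows are the 20 most abundant, the listed markers and families with more than 10 reads, the precursors with the most reads or the largest excess of an arm, the rows of highest and lowest CV, and the members of the 5 leading clusters. Members and lists were chosen with earlier results of these data known. Other rows of the lists are named to show that they are at 0 or low. Alternatives were DESeq2 1.42.0, limma 3.58.1 on log2 ratios (pseudocount 1), TMM or DESeq2 scaling, other filters and distances, no block, an FDR of at most 0.01, and leaving out each mouse. Scripts were tested on simulated data.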

Additional observations from a re-analysis of the deposited data

Results flagged for a closer look

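Of the 81 named rows tested with Dixon's criterion for a mouse far from the other 4, 2 (2.47%) passed, where chance passes about 1 in 20. For mir-29a-3p, mouse 1 was highest with 611 CPM, and the other mice had 445 to 483 CPM. For mir-5119-3p, mouse 5 was highest with 679 CPM, and the others had 104 to 251 CPM. Neither was examined further. The wide spread of mir-582 did not pass, because mice 1 and 2 were both high.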

How the results depend on the processing

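Depth limits rows near 6.17 to 7.22 CPM, and rows at 0 cannot be judged. The number of detected rows was 406, but 942 with at least 1 read and 187 with more than 10 reads in every mouse. The clustered share of all reads rose from 10.7% to 12.0% at 50 kb. With the mir-378 rows left out, the top 3 share was 44.0% and the clustered share 40.4%. With more than 10 reads on each arm, 57 arm preferences and 54 with the same arm in every mouse were left, since fewer precursors were tested. The median CV was 16.8% with TMM, 12.6% with a mean above 50 reads, and 15.8 to 18% without each mouse.

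Other alternatives kept these results: arm preferences were 113 to 130 (115 by DESeq2, 130 by limma, 130 without the mouse block), and 105 to 119 without each mouse. Rows beyond counting error were 77 to 81, and 73 to 86 without each mouse. The arms of mir-345 passed the FDR in 3 alternatives, with 0.00278 without mouse 4, 0.0351 without mouse 2 and 0.0359 with more than 10 reads on each arm, and 0 of 181 alternatives for named arms changed direction. All 567 alternatives for the levels of named rows stayed within 1 SD. For those that leave out a mouse this was fixed in advance, since the mean cannot then move by 1 SD.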

Other observations

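Among precursors with a mature entry in the RefSeq sequences used here, 309 arms had no mature strand assigned to them. For some precursors, mir-351 among them, this held for both arms. Of the 309 rows 39 had more than 10 reads, against 302 of the 1225 rows of arms with an entry. The most abundant were mir-125b-2-3p, mir-351-5p, mir-181c-3p and mir-28a-3p. For mir-28a-3p the mice had 800, 801, 956, 801 and 792 reads (1859 ± 74.2 CPM), a CV close to that of counting. Of the rows of arms with an entry, 369 were listed at 0 in all 15 libraries.

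The let-7c-2 cluster took 0.368% of reads, the mir-181c cluster 0.323%, the mir-497a and mir-195a cluster 0.299%, the mir-144 and mir-451a cluster 0.298%, and the mir-541 cluster on chromosome 12, with 24 precursors, 0.225%. The 32 precursors on the X chromosome with more than 10 reads on an arm took 20.8% of the reads outside the mir-378 rows.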
